A study of Solanum lycopersicum with 2 samples.

Results

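Isolated SlWUS peaks are the stretches of the tomato genome where the protein SlWUS enriched DNA and where no other enriched stretch lay close by. In DAP-seq (DNA affinity purification sequencing), fragments of genomic DNA that a protein binds outside the cell are captured and sequenced, and each enriched stretch is listed as a peak with a summit, its highest point. A peak counted as isolated when the summits before and after it on the same chromosome both existed and both lay more than 20000 bp away. This held for 2506 of the 65446 peaks on chromosomes 1 to 12, or 3.83% (exact Clopper-Pearson 95% interval 3.68 to 3.98%). The deposited list had 65452 peaks, of which 6 lay on unplaced sequence and were not eligible. The first and last peak of each chromosome, 24 in all, lack a neighbour on 1 side and could not be members, although 5 of them had their only neighbour more than 20000 bp away.

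The study used the tomato (Solanum lycopersicum) cultivar Ailsa Craig, and its labels give the flower abscission zone as the source and carry the word Halo, the name of a protein tag. There were 2 libraries of genomic DNA, 1 titled for WUSCHEL and 1 for its input, with no genotype, treatment or age named. Plants were grown in a greenhouse with a day and night cycle. Only the SlWUS peak list was analysed here, so no spread between replicates exists, and errors below are counting error or the SD over 12 chromosomes of this library.

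The homeodomain protein WUSCHEL keeps stem cells in plant shoot meristems undifferentiated. In the well-studied Arabidopsis circuit it activates CLAVATA3, whose peptide product in turn limits WUSCHEL. The series title links the tomato proteins to auxin and ethylene in flower abscission under low light. Homeodomain proteins bind short DNA motifs that are common in any plant genome. In DAP-seq the DNA carries no chromatin, so a peak marks sequence that can be bound. Tomato chromosomes have gene-rich ends and long, repeat-rich pericentromeric middles. The position of an isolated peak is given below only as a percent of the chromosome span, and the borders of these parts were not located. Sequence and gene models of the SL4.0 build used by the file were not used here, so no gene, exon or repeat is assigned to a peak.

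The members were chosen by the spacing of the measured summits, and the spacing, height, width and background of a peak all come from the same peak calling in 1 library. All values are therefore descriptions, and no test was made on them.

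Isolated peaks lay in the middle of the chromosomes more often than other peaks did. The distal zones, 10% of the span at either end, held 208 isolated peaks, and the stretch from 30% to 70%, called central, held 1279. The remaining 1019 lay between these zones. Isolated peaks made up 1.02% of distal peaks (95% interval 0.887 to 1.17%), 4.15% of those between (3.91 to 4.41%) and 6.24% of central peaks (5.91 to 6.58%). The central zones thus held 51.04% of isolated peaks but 31.3% of all peaks, and the distal zones 8.30% against 31.2%. Per length, isolated peaks occurred at 1.35 per Mb in the distal, 3.30 per Mb between and 4.14 per Mb in the central zones.

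On all chromosomes but 1, isolated and other peaks were dense in opposite zones. Isolated peaks were 0.313 times as dense in the distal as in the central zones (log2 -1.67 ± 0.72, mean and SD over 12 chromosomes). All other peaks were 2.08 times as dense there (log2 1.06 ± 0.32). Isolated peaks were denser in the central zone on 11 of 12 chromosomes, and the other peaks were denser distally on 12 of 12. A limit on spacing selects peaks from sparse sequence by construction, so this contrast describes where the members lie and is not independent of the rule.

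**Figure D1:**
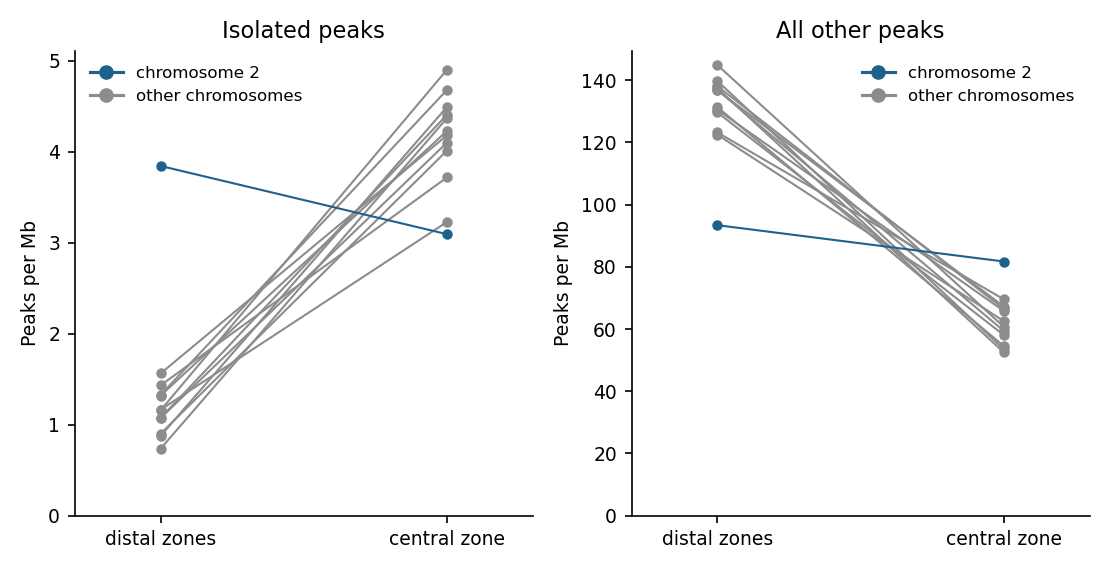
Peaks per Mb (y axis, from 0) in the distal zones and the central zone of each chromosome, for isolated peaks (left) and all other peaks (right), with each line standing for 1 chromosome. Isolated peaks are denser in the central zone on 11 of 12 chromosomes, and chromosome 2, in blue, goes the other way at 3.84 distal against 3.09 central peaks per Mb.

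Chromosome 2 was the exception. It carried 41 distal isolated peaks at 3.84 per Mb, against 66 central ones at 3.09 per Mb, and 33 of the 41 lay at its first end. That end belongs to the short arm, which carries the nucleolus organizer in tomato. In the first 5% of its span, 13.5% of peaks were isolated, whereas the mean of the other 11 chromosomes there was 0.735% (range 0.18 to 2.27%). On the other 11 chromosomes the distal density of isolated peaks ranged from 0.736 per Mb on chromosome 11 to 1.56 per Mb on chromosome 8. Without chromosome 2, isolated peaks were 0.276 times as dense distally as centrally (log2 -1.86 ± 0.38, SD over 11 chromosomes).

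The share of isolated peaks was not symmetric along the span. It was 2.38% on average (SD 2.29, 12 chromosomes) from 5 to 10% of the span and 6.95% (SD 4.05) from 10 to 15%. It then stayed between 6.65% and 8.65% up to 55% of the span. Beyond that it was lower, at 5.59% from 55 to 60%, 3.62% from 75 to 80%, 1.37% from 85 to 90% and 0.629% (SD 0.447) in the last 5%. The zones at the first end of the 12 chromosomes together held 134 isolated peaks, and those at the last end 74. Without chromosome 2 they held 101 and 66. The first end held more on 8 of 12 chromosomes, and the last end on chromosomes 3, 5, 11 and 12. Single chromosomes departed from this course. On chromosome 9 the share reached 19.5% (22 of 113 peaks) from 30 to 35% of the span, and on chromosome 7 it reached 15.98% from 55 to 60%. On chromosomes 1 and 2 it was 15.2% and 15.1% from 20 to 25%.

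**Figure D2:**
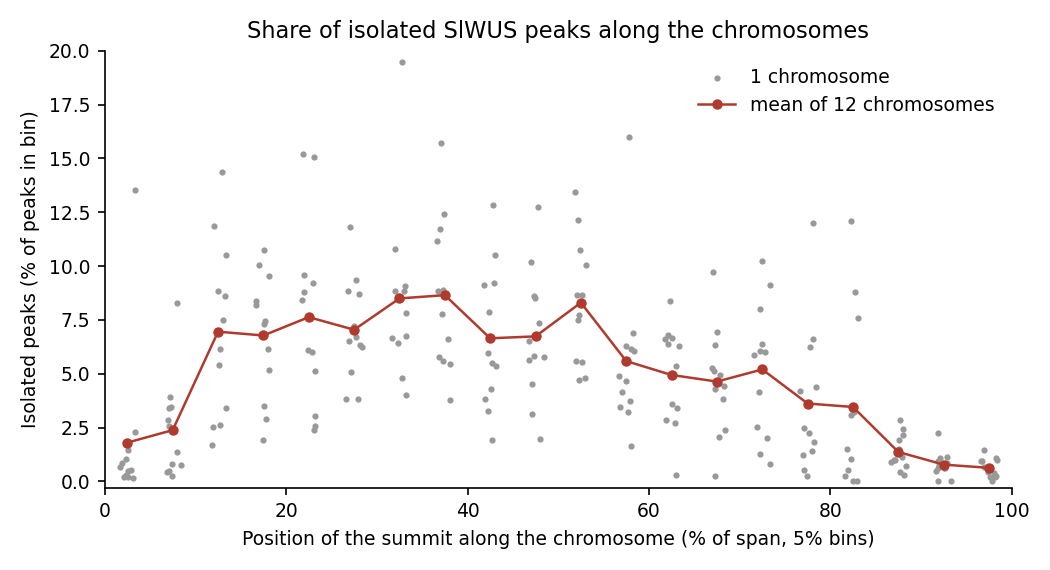
Share of peaks that are isolated (y axis, percent) in 20 bins of 5% of the chromosome span (x axis), with a grey point for each chromosome and the mean over 12 chromosomes in red. The mean stays between 6.65% and 8.65% from 10 to 55% of the span and falls to 0.629% at the last end, and the high point in the first bin, at 13.5%, is chromosome 2, without which the mean of that bin is 0.735%.

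The share of isolated peaks also varied between chromosomes. It was lowest on chromosome 6, with 111 of 4490 peaks or 2.47% (95% interval 2.04 to 2.97%), followed by chromosome 3 with 180 of 6139 or 2.93% (2.52 to 3.39%) and chromosome 2 with 165 of 4882 or 3.38% (2.89 to 3.93%). The intervals of chromosomes 6 and 3 overlap, as do those of chromosomes 3 and 2. Chromosome 10 had the highest share, with 234 of 5178 peaks or 4.52% (3.97 to 5.12%), and chromosome 7 had 246 of 5504 or 4.47% (3.94 to 5.05%). The interval of chromosome 10 does not meet those of chromosomes 6, 3 and 2, and overlaps those of the other 8. Chromosomes 6, 3 and 2 were also those with the most peaks per Mb, at 95.03, 94.1 and 91.5. Per length, isolated peaks ranged from 2.35 per Mb on chromosome 6 (exact Poisson 95% interval 1.93 to 2.83) to 3.63 per Mb on chromosome 7 (3.19 to 4.11).

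Most isolated peaks had a neighbour within 30000 bp. The smaller of the 2 flanking distances had a median of 26996 bp (quartiles 22764 and 35434 bp), from 20009 up to 385336 bp. It exceeded 30000 bp in 967 members (38.6%), 50000 bp in 249 (9.94%) and 100000 bp in 49 (1.96%). The larger flanking distance had a median of 45614 bp (quartiles 33149 and 71918 bp), and in 717 members (28.6%) it was more than 2 times the smaller one. Distances of more than 20000 bp made up 16.1% of all 65434 distances between neighbouring summits, yet spanned 442 of 772 Mb, or 57.2% of the sequence. Of these 10531 long distances, 4260 bordered on at least 1 isolated peak and 752 ran from an isolated peak to the next.

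Isolation at 20000 bp did not mean an empty surrounding. The median isolated peak had 10 other summits within 100000 bp on either side (quartiles 6 and 14), against 21 for peaks with a near neighbour (quartiles 14 and 28). In 1284 members (51.2%) there were 10 or more, and in 49 there was none. The member with the most, 42 other summits within 100000 bp, lay on chromosome 4 from 60782653 to 60782882, with neighbours 20107 and 20078 bp away. It was weak, at 2.25-fold with 16 fragments at the summit. A member on chromosome 5 (61371190 to 61372022) and another on chromosome 8 (3042421 to 3042730) each had 36. All 3 lay in distal zones.

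The share of isolated peaks was larger in sparser megabases, which follows from a rule on spacing and is given as a description. Among 766 full windows of 1 Mb, the 62 with up to 40 peaks held 317 isolated peaks, or 16.6% of their peaks. The 162 windows with 41 to 60 peaks held 800 (9.51%), and the 224 with 61 to 80 peaks held 895 (5.75%). In the 167 windows with 101 to 150 peaks 182 were isolated (0.845%), and in the 51 with more than 150 peaks 27 were (0.323%), with none in 30 of these windows. The median window held 3 isolated peaks, and 102 windows (13.3%) held none. The most in a window was 11, found in 5 windows. They were chromosome 4 from 9000001 to 10000000, where 31.4% of 35 peaks were isolated, chromosome 7 from 37000001 to 38000000, chromosome 9 from 28000001 to 29000000 and from 48000001 to 49000000, and chromosome 12 from 24000001 to 25000000.

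Isolated peaks often followed each other. Consecutive members share a distance of more than 20000 bp, so runs arise in part by construction. How many runs the spacing alone would give was not tested. Of the 2506, 1279 stood alone between peaks that were not isolated, and 1227 (48.96%) belonged to 475 runs of 2 or more consecutive members. Pairs were the most common, with 305, followed by 101 runs of 3 and 48 of 4. The longest run had 10 members and spanned 629 kb on chromosome 1 from 20695064 to 21324167. Its peaks ranged from 3.23-fold to 31.7-fold, with a median of 5.42, and 4 of the 10 had the lowest background in the list. The second longest had 8 members over 1575 kb on chromosome 11 from 18639879 to 20214952, with folds from 2.93 to 10.4. It enclosed the longest distance between neighbouring summits in the genome, 1177511 bp, and both peaks beside that gap were members. The left one, from 18826959 to 18827198, had 25 fragments over a background of 4.08 and was 5.12-fold enriched. The right one, from 20004465 to 20004671, had 19 fragments over 5.26 and was 3.19-fold enriched. At the next 3 longest distances, of 678682 bp on chromosome 4, 661655 bp on chromosome 10 and 635328 bp on chromosome 12, none of the flanking peaks was isolated, because each had a neighbour within 20000 bp on its other side. Whether reads could be placed in these gaps was not tested.

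The background behind isolated peaks was lower than behind other peaks. The background is the number of fragments that the peak caller set against the pileup, the number of fragments over the summit. Its median was 5.62 fragments at isolated peaks (quartiles 4.37 and 6.55) and 6.11 at peaks with a near neighbour (quartiles 5.28 and 6.98). Per chromosome the medians were 5.58 ± 0.127 and 6.11 ± 0.0214 (mean and SD, 12 chromosomes). The isolated median was lower on 12 of 12 chromosomes, from 0.858 times the other median on chromosome 1 to 0.934 times on chromosome 5. The lowest value in the list, 4.08 fragments, was shared by 556 isolated peaks, or 22.2% (95% interval 20.6 to 23.9%). Among peaks with a near neighbour it was shared by 4400, or 6.99% (6.80 to 7.20%). Per chromosome this share ran from 17.0 to 24.9% of isolated peaks and from 5.35 to 8.34% of the others, so the 2 ranges did not overlap.

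Beyond 10 kb the background was lower the farther the nearest summit lay. It had a median of 6.11 fragments in each class of nearest distance up to 10 kb. From 10 to 20 kb the median was 5.98, from 20 to 30 kb 5.68, from 30 to 50 kb 5.43 and over 50 kb 4.37. The share of peaks at the lowest value was 5.40% under 1 kb, 12.6% from 10 to 20 kb, 17.7% from 20 to 30 kb, 23.4% from 30 to 50 kb and 46.6% (95% interval 40.3 to 52.99%) over 50 kb. The last class holds 249 peaks. Close to the limit of 20000 bp itself the contrast was not seen. Peaks this near to the limit hardly differ in distance, so they cannot show a change that runs over many kb. The 65 members whose smaller distance was within 250 bp above it had a median background of 6.11, and the 74 peaks within 250 bp below it 6.14. The lowest background was found at 9 of the 65 (13.8%) and at 14 of the 74 (18.9%), the opposite direction to that of all members but from few peaks. Their median folds were 4.34 and 4.64, their median widths 292 and 314.5 bp, and their median pileups 30 and 28.5 fragments.

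**Figure D3:**
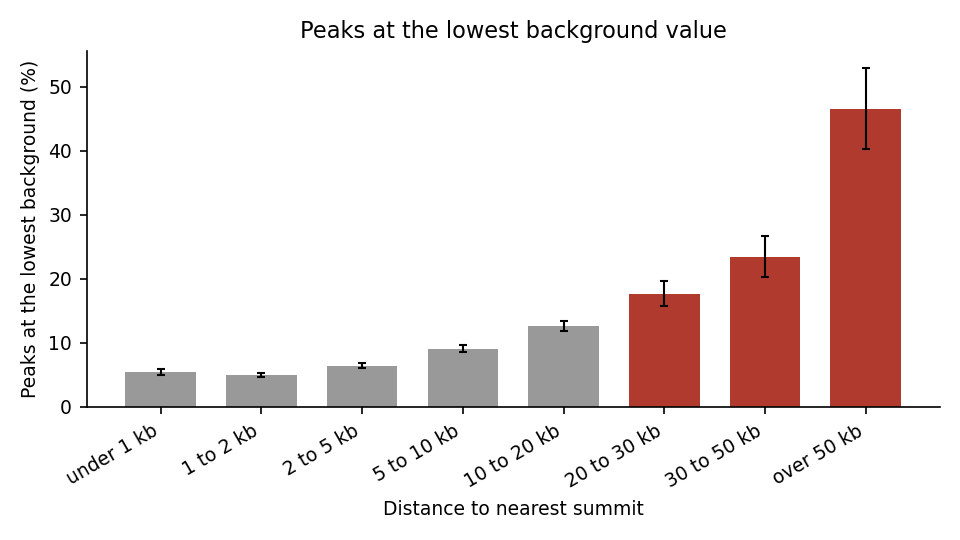
Share of peaks at the lowest background value of 4.08 fragments (y axis, percent, from 0) by distance to the nearest summit (x axis), with isolated classes in red and exact Clopper-Pearson 95% intervals as bars. The share is 5.40% under 1 kb and 46.6% over 50 kb.

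The lower background was found in each zone. In the central zones the median was 5.68 at isolated and 5.93 at other peaks, and lower on 11 of 12 chromosomes. Between the zones it was 5.24 against 6.07 and lower on 12 of 12, and in the distal zones 6.07 against 6.36 and lower on 11 of 12. The share at the lowest value was 18.6% against 8.72% in the central zones, 28.2% against 9.15% between them and 14.9% against 2.84% in the distal zones, the last from 31 of 208 isolated peaks. Within 1 Mb windows that held both kinds of peak, the median log2 ratio of isolated over other backgrounds was -0.0893 (672 windows). How the input library entered this background is not given in the sources used here, and what sets it in sparse sequence was not tested.

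The number of SlWUS fragments at the summit differed by less than the SD over chromosomes. Isolated peaks had a median pileup of 29 fragments (quartiles 22 and 41.8, range 12 to 977), and the others 30 (quartiles 23 and 43). A single peak with 29 fragments has an exact Poisson 95% interval from 19.4 to 41.6, which is not the error of a median over many peaks. The chromosome medians were 28.7 ± 1.36 and 29.8 ± 0.452 (SD, n = 12 chromosomes), and the isolated median was lower on 9 chromosomes, equal on 1 and higher on 2. The direction was not shared by the zones. In the central zones both medians were 30, and between the zones they were 27 and 29. Between the zones the isolated median was lower on 11 of 12 chromosomes and equal on 1. The mean log2 ratio there was -0.125 ± 0.073 (SD), which exceeds its SD. In the distal zones they were 31 and 30. Pileups of up to 20 fragments made up 18.5% of isolated and 15.4% of other peaks.

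Fold enrichment, the authors' ratio of pileup to background, was slightly higher at isolated peaks. Its median was 4.63 (quartiles 3.55 and 6.50) against 4.33 (quartiles 3.37 and 6.14). The chromosome medians were 4.62 ± 0.276 and 4.33 ± 0.0328 (SD, n = 12), with the isolated median higher on 11 of 12 chromosomes. Within zones it was higher on 10 of 12 chromosomes centrally, 7 of 12 between and 8 of 12 distally. The mean log2 ratio was 0.09 ± 0.088 (SD), about the size of the spread between chromosomes. Among the isolated peaks the fold was 4.57 from 20 to 30 kb, 4.49 from 30 to 50 kb and 5.12 over 50 kb, while the pileup was 30, 28 and 28 fragments. The most isolated peaks thus had a higher fold over fewer fragments, with a background of 4.37. Counting only peaks above the lowest background, the mean log2 ratio of fold was 0.0458 ± 0.0797, and when the list was limited to peaks of at least 5-fold it was -0.00682 ± 0.0409.

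**Figure D4:**
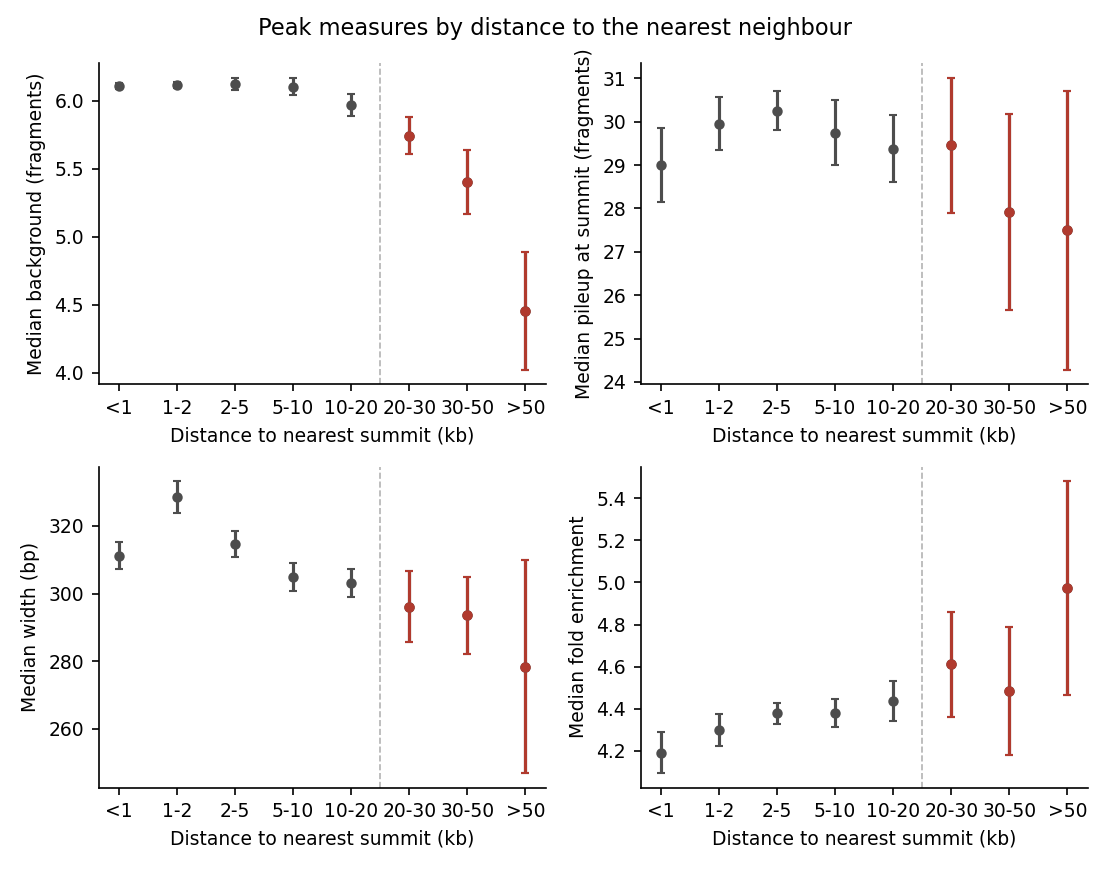
Median background, pileup, width and fold (y axes, not from 0) by distance to the nearest summit (x axes, kb), as mean and SD of 12 chromosome medians, with isolated classes in red right of the dashed line at 20 kb. The background falls from 6.11 to 4.46 fragments, while the error bars of the pileups overlap among the isolated classes.

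Isolated peaks were narrower. The median width was 292 bp (quartiles 243 and 376, range 207 to 1726 bp) against 314 bp (quartiles 252 and 423). The chromosome medians were 293 ± 6.87 and 314 ± 2.27 bp (SD, n = 12), and isolated peaks were narrower on 12 of 12 chromosomes. The difference was smaller against peaks whose nearest neighbour lay 5000 to 20000 bp away, which had a median of 304 bp. Against all peaks with a near neighbour it was 9 bp in the central zones (296 against 305 bp). Against those 5000 to 20000 bp away, isolated peaks were narrower on 12 of 12 chromosomes between the zones (287 against 304 bp). Centrally they were narrower on 7 and wider on 5 (296 against 299 bp). Distally they were narrower on 6 and wider on 6 (299.5 against 312 bp). Peaks with a summit 1 to 2 kb away were the widest, at 329 bp, and those 10 to 20 kb away measured 303 bp. Widths also differed between peaks of like pileup. At 21 to 30 fragments the median widths were 255 and 271 bp, and isolated peaks were narrower on 10 of 12 chromosomes. At 31 to 40 fragments they were 290.5 and 309 bp, at 41 to 60 fragments 335 and 356 bp, and at 61 to 100 fragments 374 and 403 bp, narrower on 12 of 12. Above 200 fragments, with 28 isolated peaks, the medians were 471.5 and 488 bp, and isolated peaks were narrower on 6 of the 11 chromosomes that had both. The mean difference over those chromosomes was 37.8 ± 109 bp (SD), with isolated peaks the wider.

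The summits of isolated peaks sat nearer to the middle of the interval. The median distance of the summit from the middle was 8.58% of the width, against 9.68% for peaks with a near neighbour, and it was smaller on 11 of 12 chromosomes. Against peaks with the nearest neighbour 5000 to 20000 bp away, at 8.87%, it was smaller on 8 of 12. The mean log2 ratio there was -0.0433 ± 0.139 (SD). By zone, it was smaller on 6 of 12 chromosomes centrally, 6 of 12 between and 8 of 12 distally.

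Peaks above 10-fold had a somewhat larger share among isolated peaks than in the whole list, though not between the zones. Enrichment above 10-fold was found in 277 isolated peaks, or 11.1% (95% interval 9.85 to 12.3%), where 9.23% of all peaks passed it. The intervals here take peaks as independent, which neighbouring peaks are not, so they are no test. The share was 12.98% in the distal, 9.52% in the between and 11.96% in the central zones, against 7.81%, 9.53% and 10.1% of the other peaks there. Above 20-fold there were 58 isolated peaks, or 2.31% (1.76 to 2.98%), against 1.99% of all peaks, a value within the interval. Above 50-fold there were 8, or 0.319% (0.138 to 0.628%), against 0.252% of all peaks, again within the interval. Read the other way, 4.85% of the 165 peaks above 50-fold were isolated (2.12 to 9.33%), near the 3.83% of all peaks. Of the 35 peaks above 100-fold, 3 were isolated (8.57%, 95% interval 1.80 to 23.1%). All 3 were central, as were 51.04% of all members. The 58 above 20-fold comprised 36 central, 17 between and 5 distal peaks. These were 2.81%, 1.67% and 2.40% of the members in those zones, against 2.55%, 1.97% and 1.43% of the other peaks there.

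The strongest isolated peak was also the second strongest peak of the list. It lay on chromosome 1 from 43274466 to 43274983, near the middle of the chromosome, with 977 fragments (95% counting interval 917 to 1040) over a background of 4.35, which is 183-fold. Its neighbours were 44813 and 43640 bp away, and 6 other summits lay within 100000 bp. The next was on chromosome 12 from 44288921 to 44289402, with 563 fragments (517 to 611) over the lowest background, which is 111-fold. It had 27 other summits within 100000 bp, the most of the 10 strongest members. The third, 101-fold with 541 fragments (496 to 589), lay on chromosome 2 from 17126753 to 17127252. Its left neighbour at 29982 bp was the sixth strongest member, from 17096721 to 17097262, 59.9-fold with 342 fragments (307 to 380). The counting intervals of these 2 do not meet. They were the strongest of 16 pairs of consecutive isolated peaks that both passed 10-fold, among 752 pairs of consecutive isolated peaks. Singly, 11.1% of members passed 10-fold, and whether strong members follow each other was not tested.

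Chromosome 6 carried the next 2 strongest members after the third although it had the smallest share of isolated peaks. They were an 89.7-fold peak from 18432901 to 18433420 with 637 fragments (588 to 688) and a 75.7-fold peak from 11776390 to 11777338 with 397 (359 to 438). The first of these had its right neighbour at 20191 bp, just past the limit. The seventh lay outside the central zones, on chromosome 4 from 57494346 to 57495217, with 416 fragments and 57.5-fold, and the eighth was distal, on chromosome 8 from 2247437 to 2248041, with 342 fragments and 51.8-fold. The last 2 of the 10 were 47.9-fold on chromosome 12, spanning 24804137 to 24804611, and 47.8-fold on chromosome 3, spanning 34509089 to 34509785. Their widths ran from 475 to 949 bp, and their counting intervals of fold overlap for the eighth and the last 2, at 46.5 to 57.6, 43.6 to 52.4 and 42.7 to 53.3. These intervals take the background as exact.

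Each chromosome had at least 1 isolated peak above 30-fold. Beyond those named, the strongest was 36.5-fold on chromosome 5 from 47027203 to 47027923, 44.1-fold on chromosome 7 (48801431 to 48801922), 38.05-fold on chromosome 9 (25777210 to 25777665) and 42.9-fold on chromosome 10 (33406088 to 33406547). On chromosome 11 it was 31.9-fold, from 15482346 to 15482691. That peak had 161 fragments (137 to 188) over the lowest background and the largest smaller distance of the 12, with neighbours 92911 and 112039 bp away. The peaks on chromosomes 7 and 9 had a neighbour at 142652 and 141751 bp on 1 side, and at 38097 and 28557 bp on the other.

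**Figure D5:**
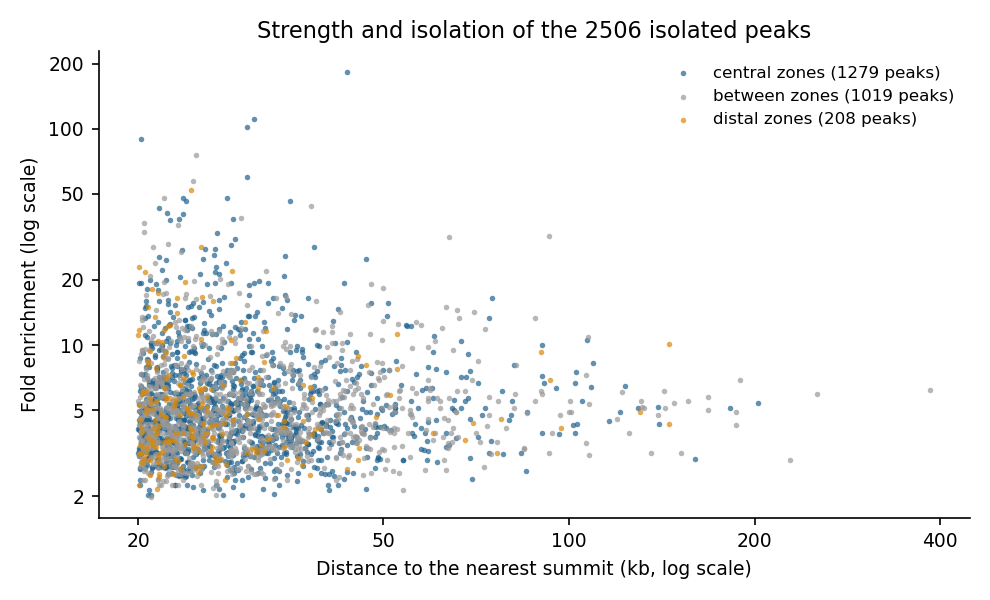
Fold enrichment (y axis, log scale) against distance to the nearest summit (x axis, kb, log scale) of the 2506 isolated peaks, coloured by zone, with each point standing for 1 peak. The 8 peaks above 50-fold all have a neighbour within 50 kb, and the 49 peaks beyond 100 kb reach at most 10.8-fold. Of all peaks, 0.252% pass 50-fold and 1.99% pass 20-fold. At these shares the 249 peaks beyond 50 kb and the 49 beyond 100 kb would hold few such peaks or none.

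The 5 most remote peaks were between 2.96-fold and 6.90-fold, and all but the third lay above the median of 4.63 for all members. The member with the largest smaller distance lay on chromosome 1 from 17438861 to 17439164, with neighbours 535434 and 385336 bp away. It had 39 fragments (27.7 to 53.3) over a background of 5.43, which is 6.22-fold. The second, on chromosome 5 from 51863915 to 51864141, had neighbours at 252803 and 544614 bp and 29 fragments (19.4 to 41.6) over the lowest background, 5.91-fold. The third, on chromosome 6 from 10983171 to 10983432, had 14 fragments (7.65 to 23.5) and 2.96-fold, with neighbours at 467551 and 228681 bp. Its −log10 q, the authors' value, was 2.95. The next 2 were a 5.39-fold peak on chromosome 9 (21134706 to 21135127, 35 fragments) and a 6.90-fold peak on chromosome 5 (50354108 to 50354355, 34 fragments). Their counting intervals of fragments overlap with that of the median isolated peak. All 5 were 227 to 422 bp wide, and 3 of them had the lowest background.

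The 3 widest isolated peaks were well below the strongest ones in fold. The widest measured 1726 bp, on chromosome 8 from 39382661 to 39384386, with 38 fragments and 7.68-fold. The next were on chromosome 7, 1606 bp from 12739369 to 12740974 (39 fragments, 6.79-fold) and 1356 bp from 27491910 to 27493265 (33 fragments, 4.504-fold). The first 2 lay above the upper quartile of fold among members, 6.50, and the last near their median. All 3 had their neighbours more than 20000 bp from the summit on both sides, at 23780 to 38054 bp.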

How the data were processed

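DAP-seq of SlWUS was analysed from 1 peak list, with 1 library per group (SlWUS and input) and no replicate. Per the submitters' processing notes, Bowtie2 2.2.5, MACS2 2.1.2 and ChIPseeker were used; no source used here gives their settings or the handling of duplicates. The build is SL4.0 by the sequence names, and positions are counted from 1. The fold ratio is the pileup over the background, with 1 added to each. This ratio, the −log10 p and −log10 q values and the score of each peak are the authors', as deposited. The score was not used. The lowest −log10 q is 1.32.

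Pileup and background were computed from fold and −log10 p, since MACS2 adds 1 to both pileup and background before it takes their ratio, and its p is an upper Poisson tail. A whole pileup was found for 65452 of 65452 peaks within 0.001 on −log10 p (largest error 0.000117). These fragments are the only depth the file holds; total read depth is unknown. Exact Poisson and Clopper-Pearson intervals at 95% cover counting error only, and neighbouring peaks are not independent.

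A chromosome's span runs to the end of its last peak. Zone ratios are means of log2 ratios per chromosome with 0.5 added to each count, and measures were compared as medians per chromosome. "Near neighbour" means a summit within 20000 bp; the lowest background includes values within 0.002 of it. The peaks named are the 10 members of highest fold, the 5 of largest smaller flanking distance, the 3 widest and the strongest on each chromosome. Peaks beside the longest gaps and the members with the most summits around them were named after their values were seen. The members, zones and lists were chosen with earlier results of these data known, so no test was made. Alternatives were other distance limits, edges in place of summits, stricter lists, other zones and other comparison peaks. The scripts were tested on simulated data. Genes, motifs and sequences were not analysed here, because only a gene table of a different assembly was given. Computation used scipy 1.17.1, pandas 2.3.3 and numpy 2.4.6 under Python 3.11.15, and figures matplotlib 3.10.9.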

Additional observations from a re-analysis of the deposited data

How the results depend on the processing

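No paired analysis was possible because each group has 1 library and no result comes from a test. Of 79 values under alternative settings, 48 moved by less than the spread between chromosomes (for counts, by less than 1.5 times; for the share above 50-fold, within its counting interval), 28 moved by more and 3 changed sign. Changed limits and lists move these values by construction, since they pick other members. With limits of 10000, 15000, 30000 and 50000 bp, 9131, 4672, 967 and 249 of all 65446 peaks were isolated. Of the 165 peaks above 50-fold, 35, 18, 2 and 0 were isolated (21.2%, 10.9%, 1.21% and 0%). These shares fall along with the number of members, so their fall is not a result about strong peaks. Isolated peaks were 0.6496 times as dense distally as centrally at 10000 bp, 0.173 times at 30000 bp, and 0.524 times with distal zones of 20%. The distal density stayed lower under all 11 alternatives, from 0.173 to 0.827 times.

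Within the list of at least 5-fold, 5458 peaks were isolated, among them 1075 of the 2506 members. These are all members that passed the cut, since removing peaks can only widen distances. They were 42.9% of members, where 37.8% of peaks with a near neighbour passed. The 5458 were 22.4% of peaks above 50-fold, near the 21.97% of this whole list that were isolated. Their distal density was 0.827 times the central one. The log2 ratio of fold changed sign there, to -0.00682, and was 0.190 at 50000 bp. Within the list of −log10 q of at least 5, 3232 peaks were isolated, among them 2047 members, again all that passed the cut.

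The log2 ratio of background was negative in all 13 alternatives. It was -0.0691, -0.252 and -0.462 at 10000, 30000 and 50000 bp, -0.0985 in the list by q and -0.05004 in that by fold. Within 1 Mb windows it was -0.0893, in the central zones -0.0653, and among peaks above the lowest background -0.0415. The log2 ratio of width was negative in all 13 too: -0.176 at 50000 bp, -0.0540 against neighbours 5000 to 20000 bp away, -0.0316 within 1 Mb windows and -0.0433 in the central zones. The log2 ratio of pileup was -0.0527 as reported, changed sign to 0.0738 (distal) and 0.0123 (central zones), and was -0.122 at 50000 bp. Its size as reported is within the spread between chromosomes. Between the zones, a comparison not among these alternatives, it was -0.125 ± 0.073 (SD), beyond that spread. The comparison without chromosome 2 and those above the lowest background were chosen after seeing the data. Pileups near 30 fragments limit the order of single peaks.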
